A study of Mus musculus with 12 samples.

Results

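The miR-17-92 family was followed across 12 small RNA libraries of mouse medulloblastoma cells. Its 10 members were taken by symbol. They comprise the non-coding host transcript Mir17hg, the precursors Mir17, Mir19a, Mir20a, Mir19b-1 and Mir92-1 that lie at the host gene, the precursors Mir106b, Mir93 and Mir25 that lie inside the replication gene Mcm7, and the separate precursor Mir92b. They are 10 of the 4529 non-coding transcripts in each table, and the 9 precursors are among 1116 miRNA symbols. All libraries were made from stem-like medulloblastoma cells from the cerebellum with the genotype Math1-Cre; SmoM2, in which Cre under the granule cell progenitor promoter Math1 turns on an activated Smoothened. Control libraries 1 to 4 carried the guide sgGal4-4 and are labelled WT, although they share that tumour genotype. Libraries labelled Miat knockdown carried sgMiat-6 (6-1 and 6-2) or sgMiat-96 (96-1 and 96-2), against the long non-coding RNA Miat. Libraries labelled Mtdh knockdown carried sgMtdh-1 (1-1 and 1-2) or sgMtdh-2 (2-1 and 2-2), against the gene of metadherin. The labels give no age of the animals, number of clones or means of knockdown beyond the word CRISPR. Nor do they name separate cultures for the libraries of a guide, and a p-value here sets a difference against a spread between libraries that could be technical.

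The host gene is transcribed as a single long RNA, and the enzymes Drosha and Dicer cut the hairpins out of it into mature miRNAs of about the same length. Once a hairpin is released, each miRNA is stabilised or degraded on its own, so products of the same transcript can accumulate to different levels. Myc and Mycn activate the host gene, and in Hedgehog-driven medulloblastoma and its granule neuron precursors the cluster is known to promote proliferation. The members fall into 3 groups by seed, the bases that pair with target messages.

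The mature sequences show which members can read the same targets. Bases 2 to 8, the seed, are in capitals, sequences run 5′ to 3′, and all are from RefSeq on GRCm38.p6, where each of the 9 precursors matched an entry. Members with the miR-17 seed, which targets cell cycle inhibitors such as p21 among others, are:
miR-17-5p: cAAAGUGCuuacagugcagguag
miR-20a-5p: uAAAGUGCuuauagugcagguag
miR-106b-5p: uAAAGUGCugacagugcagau
miR-93-5p: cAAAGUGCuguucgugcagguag
Members with the miR-19 seed are:
miR-19a-3p: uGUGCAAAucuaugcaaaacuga
miR-19b-3p: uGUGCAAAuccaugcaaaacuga
Members with the miR-92 seed are:
miR-92a-3p: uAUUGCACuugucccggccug
miR-25-3p: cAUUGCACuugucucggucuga
miR-92b-3p: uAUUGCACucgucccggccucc
Counted from 1 at the 5′ end, miR-19a-3p and miR-19b-3p differ at 1 position (U11C). miR-17-5p and miR-20a-5p differ at C1U and C12U. miR-92a-3p, from Mir92-1, and miR-92b-3p, from Mir92b, differ at U10C and G21C over the 21 bases they share. Mature miR-92a-3p is the same from Mir92-1 and from the X-linked precursor Mir92-2, and mature miR-19b-3p is the same from Mir19b-1 and Mir19b-2, so a read of the mature form does not tell such copies apart.

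Counts on the family were low. Total counts were 34263 to 65240 in control libraries, 83544 to 164537 with Miat guides and 23318 to 154111 with Mtdh guides, and miRNA precursors held 2369 to 4568, 1407 to 3921 and 1015 to 7287 of them. The family held 1.26% to 10.1% of a library's miRNA counts. The targeted RNA Miat itself had 0, 1, 1 and 1 counts in control libraries, 49 and 30 with sgMiat-6 and 1 and 0 with sgMiat-96, so the sgMiat-6 counts go against the label, and the groups are called here by their labels; Mtdh is not analysed here. Counts of small RNA on so long a transcript show neither that it was depleted nor that it was not. Counts on the ribosomal precursor Rn45s were 53.0% to 55.4% of the total in control libraries, 70.2% to 82.7% with Miat guides and 63.7% to 76.7% with Mtdh guides. These shares do not overlap between control and knockdown libraries, so the Rn45s load and the guides cannot be told apart in any result against control. Of 12 neural precursors in the tables, 8 had counts, while the 3 copies of the neuronal Mir124a were at 0. The endothelial pair Mir126a and Mir126b was at 0 in every control library. It had 6 counts in the Miat group, all from Miat 96-2. In the Mtdh group it had 8, of which 6 came from Mtdh 1-2. Each knockdown group also held a library at 0, so these totals do not show a difference across a group. Among 6 blood precursors Mir155 alone had counts. The part of these markers in the results was not tested, and in bulk RNA fewer cells of a type cannot be told apart from less RNA per cell.

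The host transcript gave no measure of its own. In the tables Mir17hg is a transcript of 2339 bases at chr14:115044390-115046728 (GRCm38), as both RefSeq and the length implied by the deposited values give it. The longer GENCODE gene, chr14:115042879-115046727 on the plus strand, covers the whole cluster. The counted transcript contains all 80 bases of the Mir92-1 hairpin (chr14:115044427-115044506), 2 bases of Mir19b-1 and no base of Mir17, Mir19a or Mir20a.

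Mir17hg had 15, 27, 19 and 32 counts in control libraries 1 to 4. Mir92-1 had 15, 25, 19 and 32 in the same libraries. Both numbers came out alike library by library, as they did in the knockdown groups. With Miat guides Mir17hg had 136, 91, 34 and 35 counts against 135, 88, 34 and 34 for Mir92-1, in the order 6-1, 6-2, 96-1 and 96-2. With Mtdh guides Mir17hg had 5, 68, 26 and 5 counts against 5, 68, 25 and 5, in the order 1-1, 1-2, 2-1 and 2-2. The counts were equal in 7 of 12 libraries, and Mir17hg exceeded Mir92-1 by at most 3 counts and by 8 of 493 over all libraries. The same reads therefore appear under both symbols, and Mir17hg and Mir92-1 are not independent measurements. With the Mir92-1 counts taken off, the 8 remaining were too few to test.

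**Figure D1:**
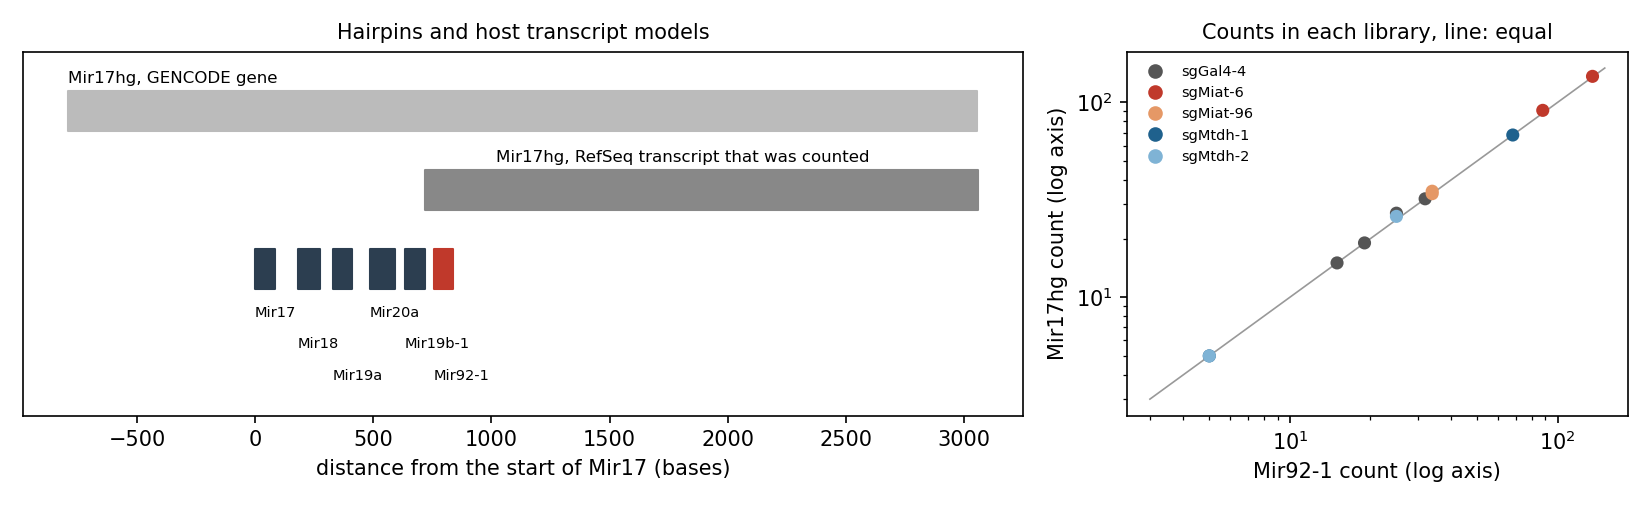
Left, positions of the cluster's hairpins and of both host transcript models in bases from the start of Mir17, with Mir92-1 in red; right, Mir17hg count against Mir92-1 count in each of 12 libraries on log axes, coloured by guide, some points overlapping, with a line where both are equal. The transcript that was counted starts near the end of Mir19b-1 and takes in Mir92-1 whole, and the points lie on or just above the line, at most 3 counts over it.

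Tested with all RNA classes together, where 14.0% of 143 transcripts passed an adjusted p of 0.05 in Miat against control libraries, Mir17hg had a log2 fold change of 1.17 and did not pass (edgeR quasi-likelihood test with Benjamini-Hochberg adjustment, adjusted p = 0.0801). DESeq2 on the same counts gave 1.11 with an adjusted p of 0.0466. This was the 1 pass among 4 alternatives other than leaving 1 library out. Over those 4 the value ran from 0.32 to 1.11, with an edgeR adjusted p of up to 0.616. In Mtdh against control libraries, where 9.79% of the 143 passed, Mir17hg was at -0.08 (edgeR adjusted p = 0.932). In Mtdh against Miat libraries, where 3.50% passed, it was at -1.25 (edgeR adjusted p = 0.108), and without Mtdh 1-2 it passed at -1.96 (edgeR adjusted p = 0.00992).

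Within the cluster, Mir92-1 and Mir20a were the precursors with enough counts to test. Mir92-1 and Mir20a rose in libraries labelled Miat knockdown, and neither passed in those labelled Mtdh knockdown. Levels below are counts per 1000000 counts of the 29 tested miRNAs, scaled by TMM factors (CPM), and a level compares libraries for the same precursor, not precursors with each other.

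Mir92-1, whose product miR-92a-3p promotes proliferation in blood and tumour cells, stood at 6129, 7809, 6035 and 6807 CPM in control libraries 1 to 4. With Miat guides it stood at 27372 and 22545 CPM in 6-1 and 6-2 and at 11065 and 17564 CPM in 96-1 and 96-2. Each Miat library lay above each control library, and the sgMiat-6 pair lay highest. With Mtdh guides it stood at 8064, 12656, 6359 and 5918 CPM, and those libraries overlapped the control. Their position depended on the scaling. Scaled to all miRNA counts of the library instead, 1-1, 2-1 and 2-2 stood at 4926, 3431 and 2789. These lay below the control range of 6300 to 7034 on that scale, while 1-2 lay above it, at 12621. The mean rose 2.94-fold with Miat guides, by 1.55 on the log2 scale (SE 0.32, edgeR adjusted p = 0.00167), and stayed past the threshold without any 1 of the 12 libraries. The call was lost with no filter on low counts (1.26, edgeR adjusted p = 0.206), with the Rn45s share as a covariate (1.40, 0.296) and without both sgMiat-6 libraries (0.93, 0.155). For Mtdh guides the log2 fold change was 0.36 (SE 0.34, edgeR adjusted p = 0.447). In the test of all RNA classes the Miat value for Mir92-1 was 1.17 (edgeR adjusted p = 0.0801). Over 5 alternatives to that test, other than leaving 1 library out, it ran from 0.33 to 1.17.

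Mir20a, whose product differs from miR-17-5p at 2 positions outside the seed, stood at 5312, 2187, 3494 and 4041 CPM in control libraries 1 to 4. With Miat guides it stood at 16220, 27669, 6834 and 4649 CPM. The sgMiat-6 libraries lay well above the control, while 96-2 lay within the control range, so the groups overlap. With Mtdh guides it stood at 3225, 9492, 7885 and 7102 CPM, where 1-1 lay within the control range and the others above it. The position of 2-1 and 2-2 depended on their TMM factors, 0.57 and 0.52. Scaled to all miRNA counts of the library instead, they stood at 4254 and 3346, within the control range of 1970 to 5488. On that scale 1-2 stayed above the control, at 9465. The log2 fold change was 1.91 with Miat guides (SE 0.49, edgeR adjusted p = 0.00716) and 1.01 with Mtdh guides (SE 0.52, edgeR adjusted p = 0.174). The Miat call was lost without control 2 (1.43, edgeR adjusted p = 0.0697), control 3 (1.59, 0.0747) or Miat 6-2 (1.23, 0.0932), and without both sgMiat-6 libraries (0.47, 0.509). It was also lost with no filter (1.61, edgeR adjusted p = 0.102), with the Rn45s share as a covariate (2.71, 0.183) and with all RNA classes (1.49, 0.114).

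Across the 4 members that could be tested, 3 passed in Miat against control libraries, Mir92-1 and Mir20a higher and Mir92b lower, beside 24.1% of all 29 miRNAs. In Mtdh against control libraries 2 passed, Mir93 higher and Mir92b lower, again beside 24.1% of the 29. In 3 of the 4 no Miat library overlapped a control library, and in 2 of the 4 no Mtdh library did, beside 27.6% and 24.1% of the 29. The median log2 fold change of the tested members was 1.73 in the Miat and 0.69 in the Mtdh comparison, and that of all 29 was -0.08 and -0.15. These 4 are not the family, since 5 precursors fell under the filter on low counts, and a member could pass that filter through the group in which it was high. Under library totals in place of TMM the median of all 29 shifted to 0.25 and -0.59, and no call of a member changed its sign.

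**Figure D2:**
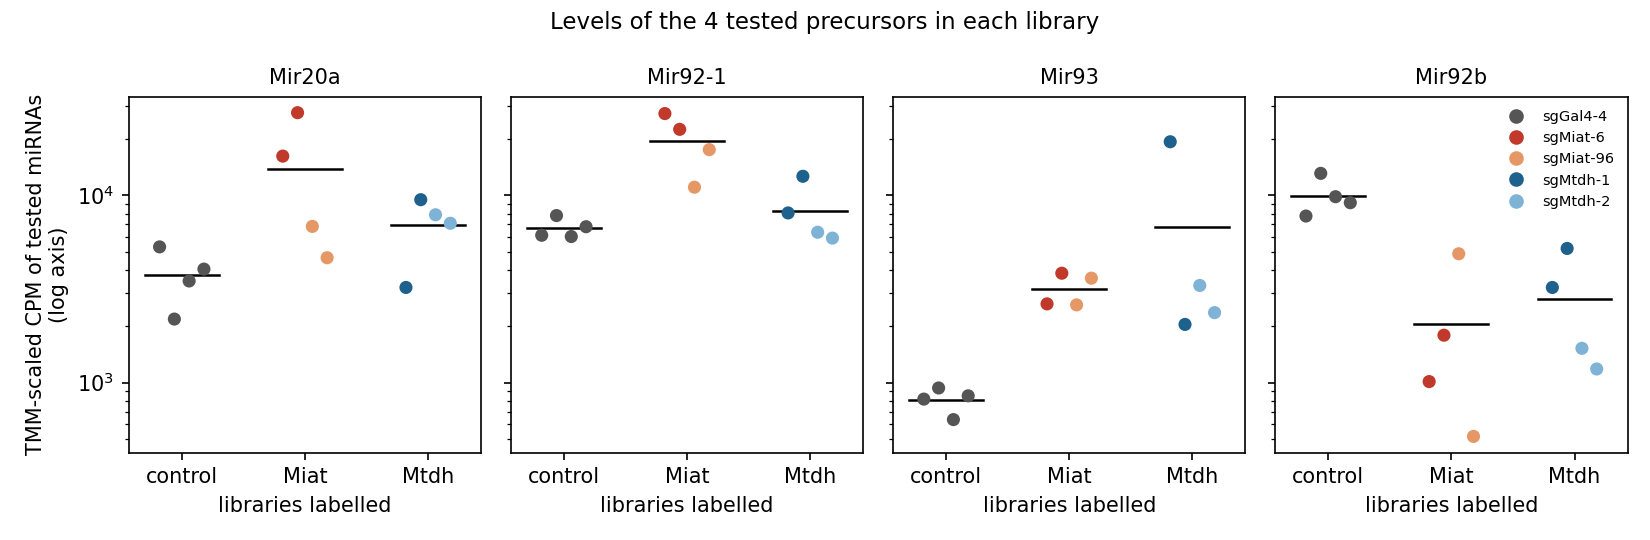
TMM-scaled CPM of the 4 tested precursors in each library on a log axis, by the group in the label and coloured by guide, with group means as bars. Mir92-1 and Mir93 lie above every control library with Miat guides, Mir92b lies below every control library in both knockdown groups, and the highest Mir93 point is Mtdh 1-1 at 19353 CPM.

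The other hairpins of the cluster were sparse, and Mir19a and Mir19b-1 were at or near 0 in the control. Mir19a, which carries the miR-19 seed, had 0, 2, 1 and 0 counts in control libraries 1 to 4. With Miat guides it had 24, 56, 5 and 5 counts. With Mtdh guides it had 0, 15, 4 and 0. Each Miat library thus held more Mir19a counts than any control library, while the Mtdh libraries ranged from none to well above the control. Per 1000000 miRNA counts, Mir19a was at 222 in the control (95% exact Poisson interval 45.8 to 649, counting error only), at 7613 with Miat guides (6122 to 9358) and at 1227 with Mtdh guides (739 to 1916). The ratio to control was 34.3 for Miat (11.4 to 169) and 5.53 for Mtdh libraries (1.63 to 29.2). Miat 6-2 held 62.2% of the Mir19a counts of its group and Mtdh 1-2 held 78.9% of those of the Mtdh group. Ratios without each library in turn were added after the counts were seen. There the Miat ratio ran from 17.3 (without Miat 6-2) to 75.8 (without control 2), and the Mtdh ratio from 1.78 (without Mtdh 1-2) to 12.2 (without control 2).

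Mir19a fell under the filter, so its test came from a fit with no filter, added after the counts were seen. There its log2 fold change was 4.20 with Miat guides (SE 0.99, edgeR adjusted p = 0.00196) and 2.29 with Mtdh guides (SE 1.01, edgeR adjusted p = 0.604). In that same fit Mir92-1 and Mir20a did not pass in Miat against control libraries, and the members called were Mir19a and Mir92b (-2.49, edgeR adjusted p = 0.00464). The fit held the 270 miRNAs with a count. The share called among them is not given here, so these calls cannot be set against it. The Miat value of Mir19a passed without each library in turn except Miat 6-2, without which it was 3.26 (edgeR adjusted p = 0.280).

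Mir19b-1, with the same seed, had counts in control 2 alone among controls, at 2. With Miat guides it had 14, 15, 0 and 4 counts, and with Mtdh guides 0, 4, 1 and 3. It was thus high in the sgMiat-6 libraries and overlapped the control in the other sets. The ratio to control was 18.9 for Miat (4.82 to 162) and 3.49 for Mtdh libraries (0.696 to 33.7), over exact intervals for counting error. Without each library but control 2, which held all the control counts, the Miat ratio ran from 12.5 to 26.9 and the Mtdh ratio from 2.31 to 5.77. In the fit with no filter its Miat log2 fold change was 3.27 (edgeR adjusted p = 0.240). Mir17, the first hairpin of the cluster, had few counts in every group. It had 3, 0, 0 and 5 counts in controls, 4, 1, 1 and 0 with Miat guides and 0, 1, 0 and 0 with Mtdh guides. Its ratio to control was 0.857 for Miat (0.245 to 2.82) and 0.109 for Mtdh libraries (0.00246 to 0.813). Control 4 held 62.5% of the Mir17 control counts, and without it the ratios were 1.51 and 0.192. Without Miat 6-1 the Miat ratio was 0.427, so its direction rests on single libraries. The remaining hairpin, Mir18, outside the 10 members, had 3, 3, 1 and 3 counts in controls, and 18 of its 20 counts with Miat guides came from 6-1.

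Within a library, the ratios between hairpins of the same host RNA need no scaling factor, and their ranges overlapped between the groups. Mir92-1 counts were 1.15 to 3.57 times Mir20a counts in control libraries, 0.815 to 3.78 times in Miat libraries and 0.806 to 2.50 times in Mtdh libraries. Mir92-1 was below Mir20a in Miat 6-2, Mtdh 2-1 and Mtdh 2-2 and above it elsewhere. Mir20a took 77.8% to 100% of the counts of Mir20a and Mir19a together in the control, 64.3% to 80.8% in the Miat group and 77.3% to 100% in the Mtdh group. Summed over the 4 libraries of a group, where libraries with more counts weigh more, Mir20a was 16.7, 2.42 and 4.74 times Mir19a in the control, Miat and Mtdh groups, the first on 3 control counts of Mir19a. These ratios were not tested.

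**Figure D3:**
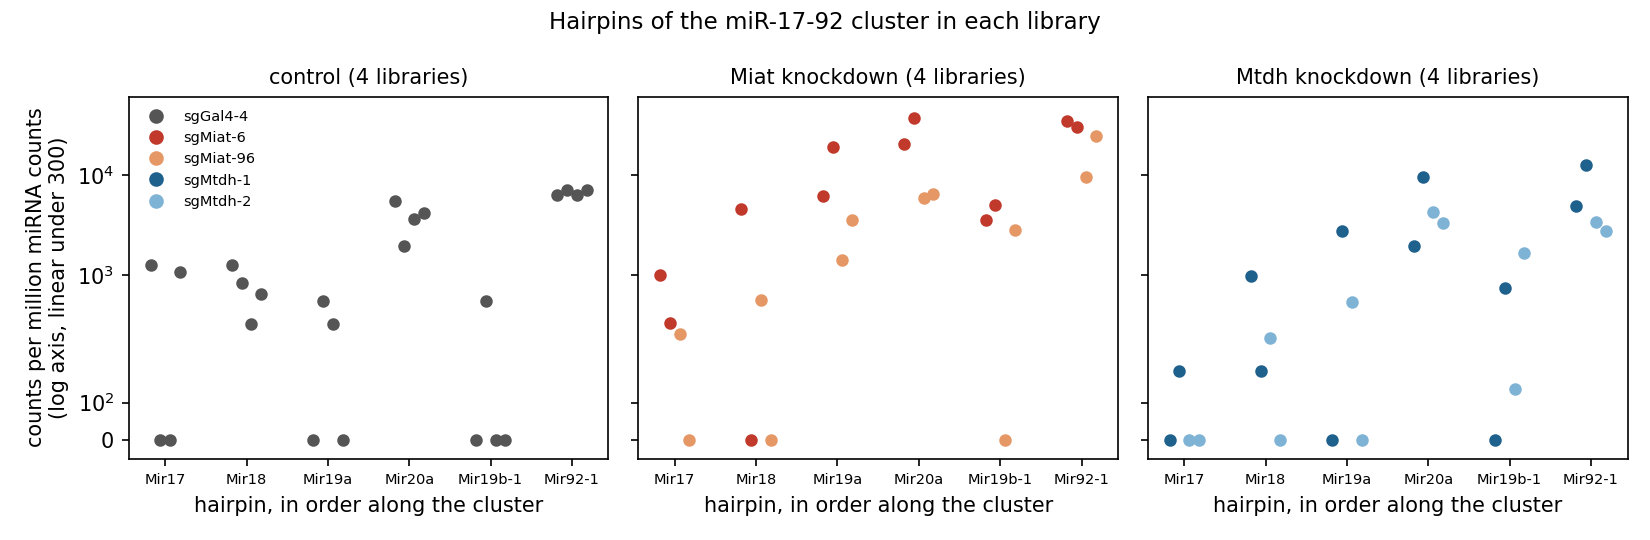
Counts per 1000000 miRNA counts of the 6 hairpins of the cluster in their order along the chromosome, 1 panel for each group and 1 point for each library, on a logarithmic axis that turns linear near 0. Mir92-1 and Mir20a have counts in all libraries, Mir19a has counts in each Miat library but in 2 of 4 control libraries, and Mir17 is at or near 0 with Mtdh guides.

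Among the precursors in Mcm7, Mir93 stood at a higher CPM in each knockdown library than in any control library. It passed the test in the Mtdh group, while Mir25 and Mir106b were too sparse to test. Mir93 entered the test through its knockdown libraries, so its call is given as a description, and the Mtdh and Miat groups were not shown to differ (0.63, edgeR adjusted p = 0.467). The 3 hairpins lie within Mcm7 on the minus strand of chromosome 5, which encodes a subunit of the replicative helicase. In the GENCODE annotation Mir106b lies in an intron, and Mir93 and Mir25 overlap an exon of some transcript of the gene.

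Mir93, which carries the miR-17 seed, had 2, 3, 2 and 4 counts in control libraries, or 817, 937, 635 and 851 CPM. With Miat guides it had 13, 15, 8 and 7 counts, or 2636, 3843, 2603 and 3616 CPM. With Mtdh guides it had 12, 11, 13 and 2 counts, or 19353, 2047, 3307 and 2367 CPM. Each knockdown library lay above each control library, and Mtdh 1-1, the library with the fewest miRNA counts at 1015, lay far above the rest. Against control the Mtdh libraries were higher by 2.53 on the log2 scale (SE 0.75, edgeR adjusted p = 0.0283) and the Miat libraries by 1.90 (SE 0.71, edgeR adjusted p = 0.0632). Without Mtdh 1-1 the Mtdh value was 1.62 (edgeR adjusted p = 0.103), and the call was also lost without any 1 control library (0.0602 to 0.0806). The Miat value passed with DESeq2 (1.91, adjusted p = 0.0322) and without Mtdh 1-1 (1.68, edgeR adjusted p = 0.0235). With no filter on low counts neither value passed. There the Miat value was 1.63 (edgeR adjusted p = 0.494) and the Mtdh value 2.15 (0.498). In the filter on low counts, no control library reached the minimum of 10 for Mir93.

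Mir25, of the miR-92 seed, had 8, 6, 1 and 2 counts in controls, 17, 3, 2 and 0 with Miat guides and 2, 6, 8 and 7 with Mtdh guides. The groups overlap, and its ratio to control was 1.48 for Miat (0.750 to 2.97) and 1.18 for Mtdh libraries (0.603 to 2.35). Miat 6-1 held 17 of the 22 Miat counts, and without it the Miat ratio was 0.503, on the other side of the control. Without control 3, control 4 or Mtdh 2-2 the Mtdh ratio was 0.974, 0.885 or 0.929. Mir106b had 1, 6, 2 and 2 counts in controls, 3, 5, 1 and 0 with Miat guides and 1, 0, 4 and 0 with Mtdh guides. Its ratios were 0.935 (0.342 to 2.48) and 0.397 (0.108 to 1.24), so no difference was detectable at this depth. Without control 2, which held 6 of 11 control counts, they were 1.52 and 0.643. Whether Mir93 differed in its change from the precursors on either side of it was not tested.

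Mir92b fell in both knockdown groups, in the opposite direction to its seed mate Mir92-1 in the Miat comparison. It lies at chr3:89227116-89227198 on the minus strand, 28 bases from the nearest protein-coding gene, Mtx1, and neural progenitors of the mouse cortex express it. Its counts were 19, 42, 31 and 43 in controls, or 7764, 13120, 9846 and 9146 CPM. With Miat guides they were 5, 7, 15 and 1, or 1014, 1793, 4881 and 517 CPM. With Mtdh guides they were 2, 28, 6 and 1, or 3225, 5211, 1526 and 1184 CPM. Each knockdown library lay below each control library, with 96-1 and 1-2 the nearest to it. The log2 fold change was -2.25 with Miat guides (4.75-fold lower, SE 0.53, edgeR adjusted p = 0.00431) and -1.68 with Mtdh guides (3.20-fold lower, SE 0.54, edgeR adjusted p = 0.0366). The Miat call held without each library in turn, and the value reached -3.19 without Miat 96-1. That call was lost in 3 of 18 other alternatives, among them the Rn45s share as a covariate (-1.29, edgeR adjusted p = 0.688). Leaving out both sgMiat-6 libraries lost it too. The Mtdh call was lost without any 1 control library, Miat 6-2, Mtdh 1-1 or Mtdh 2-1 (edgeR adjusted p from 0.0636 to 0.129). Mir92b entered the test through its control libraries, where its counts were high, so its calls are given as a description. With no filter on low counts the Miat call held (-2.49, edgeR adjusted p = 0.00464). The Mtdh call was then lost (-1.92, edgeR adjusted p = 0.0971).

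The balance between the 2 precursors needs no scaling factor. Mir92-1 took 44.1%, 37.3%, 38% and 42.7% of the counts of Mir92-1 and Mir92b together in control libraries 1 to 4. With Miat guides it took 96.4%, 92.6%, 69.4% and 97.1%. With Mtdh guides it took 71.4%, 70.8%, 80.6% and 83.3%. Every control library held more Mir92b than Mir92-1 counts, and every knockdown library held more Mir92-1. The 95% exact binomial intervals were as narrow as 91.9% to 98.8% for Miat 6-1, with 135 and 5 counts, and as wide as 29.0% to 96.3% for Mtdh 1-1, with 5 and 2. Summed over libraries, Mir92-1 counts were 0.674 times Mir92b counts in the control, 10.4 times in the Miat group and 2.78 times in the Mtdh group. Mir92-2, the X-linked copy, had 1, 3, 1 and 11 counts in controls, 19, 9, 3 and 9 with Miat guides and 0, 17, 3 and 0 with Mtdh guides. How reads of the shared mature form were split between the copies is not given in the sources used here, and with the copies summed the Miat value for Mir92-1 stayed at 1.55.

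**Figure D4:**
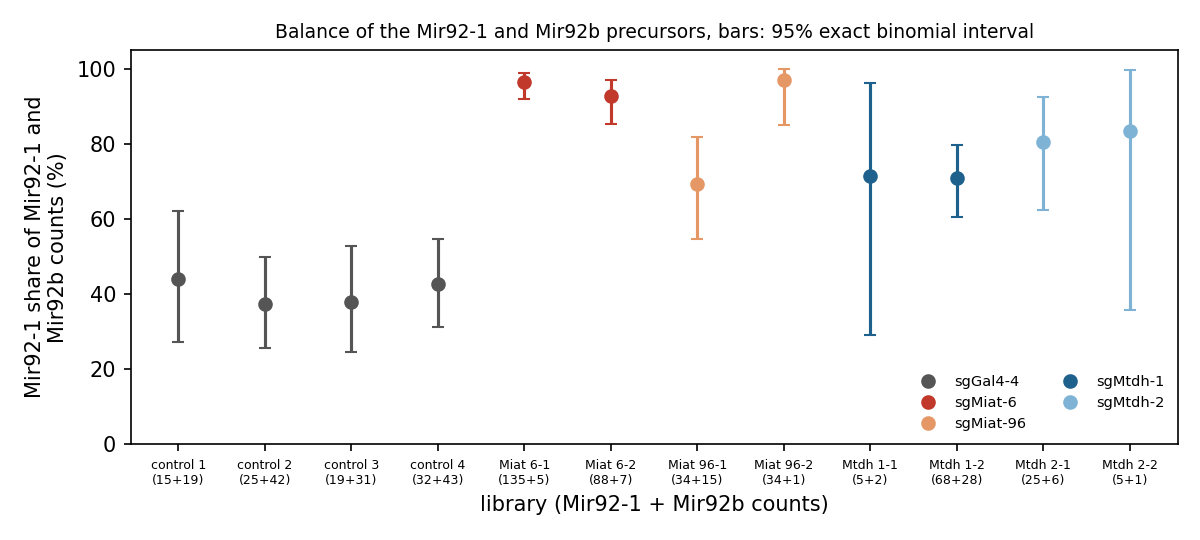
Share of Mir92-1 in the summed counts of Mir92-1 and Mir92b in each library, with 95% exact binomial intervals as bars and the counts of both under each library. The 4 control libraries lie between 37.3% and 44.1% and the 8 knockdown libraries between 69.4% and 97.1%.

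By seed, the make-up of the family differed between the groups. Members with the miR-92 seed (Mir92-1, Mir25 and Mir92b) held 73.9% ± 4.29 of the family's precursor counts in the control (SD, n = 4), 50.8% ± 12.2 in the Miat group and 47.4% ± 8.82 in the Mtdh group. Members with the miR-19 seed held 1.45% ± 2.03, 14.4% ± 7.45 and 7.07% ± 5.56. Members with the miR-17 seed held 24.7% ± 6.17, 34.9% ± 6.82 and 45.6% ± 14.2. The miR-92 share of each knockdown library, at most 58.6%, lay below that of each control library, at least 68.9%. A lower share was not always a lower level. Scaled to miRNA counts as for Mir19a above, miR-92 members averaged 18009 in the control, 28114 with Miat guides and 10100 with Mtdh guides. Their ranges overlapped, at 16856 to 20540, 14431 to 40041 and 5352 to 18931. No test was made on these shares or levels, since they sum over members chosen with results known. The whole family took 2.44% ± 0.189 of miRNA counts in the control, 6.08% ± 3.38 in the Miat group and 2.10% ± 1.01 in the Mtdh group. The sgMiat-6 libraries stood highest, at 7.52% and 10.1%, while Miat 96-1, at 2.46%, lay within the control range of 2.22% to 2.62%.

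By guide, the members that passed were not the same for both guides of a target. In a fit with 1 term per guide, sgMiat-6 called Mir92-1, Mir20a and Mir92b, beside 24.1% of the 29 miRNAs, and sgMiat-96 called Mir92-1 and Mir92b, beside 27.6%. Mir20a was at 2.54 on the log2 scale with sgMiat-6 (edgeR adjusted p = 3.16e-05) and at 0.65 with sgMiat-96 (edgeR adjusted p = 0.304). Tested directly, sgMiat-96 was below sgMiat-6 for Mir20a by -1.89 (edgeR adjusted p = 0.0129), which was the 1 member among 6.90% of miRNAs called between these guides. That call was lost without control 1, 2 or 3, Miat 6-2, 96-1 or 96-2, or Mtdh 1-1 (edgeR adjusted p from 0.0540 to 0.367). Mir92-1 was at 1.89 with sgMiat-6 (edgeR adjusted p = 3.16e-05) and at 1.07 with sgMiat-96 (edgeR adjusted p = 0.0143), and the difference of -0.82 between them did not pass (edgeR adjusted p = 0.135). The sgMiat-96 value for Mir92-1 fell to 0.57 without Miat 96-2 (edgeR adjusted p = 0.431), and it passed in 4 of 12 such fits. Mir92b was at -2.83 with sgMiat-6 (edgeR adjusted p = 0.000809) and at -1.72 with sgMiat-96 (edgeR adjusted p = 0.0277), where 96-1 had 15 counts and 96-2 had 1. Without Miat 96-2 the sgMiat-96 value was -1.17 (edgeR adjusted p = 0.309), and without Miat 96-1 it was -4.29 (0.00301), resting on 1 count. A guide without 1 of its libraries holds a lone library, which these fits assume to vary like the other groups.

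With sgMtdh-1 Mir93 was the called member, at 2.94 (edgeR adjusted p = 0.0421), beside 17.2% of the miRNAs, and without Mtdh 1-1 it was at 1.15 (edgeR adjusted p = 0.296). With sgMtdh-2 Mir92b was the called member, at -2.75 (edgeR adjusted p = 0.00624), also beside 17.2%, and without Mtdh 2-1 it was at -3.26 (edgeR adjusted p = 0.0919). Between the Mtdh guides 0 members passed in edgeR, beside 0.00% of the miRNAs, and 2 members had an unadjusted p under 0.05, among 5 of all 29. With library totals in place of TMM, Mir92-1 and Mir92b passed between these guides, both lower with sgMtdh-2 (-1.62 and -2.45, edgeR adjusted p = 0.0344 each).

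**Figure D5:**
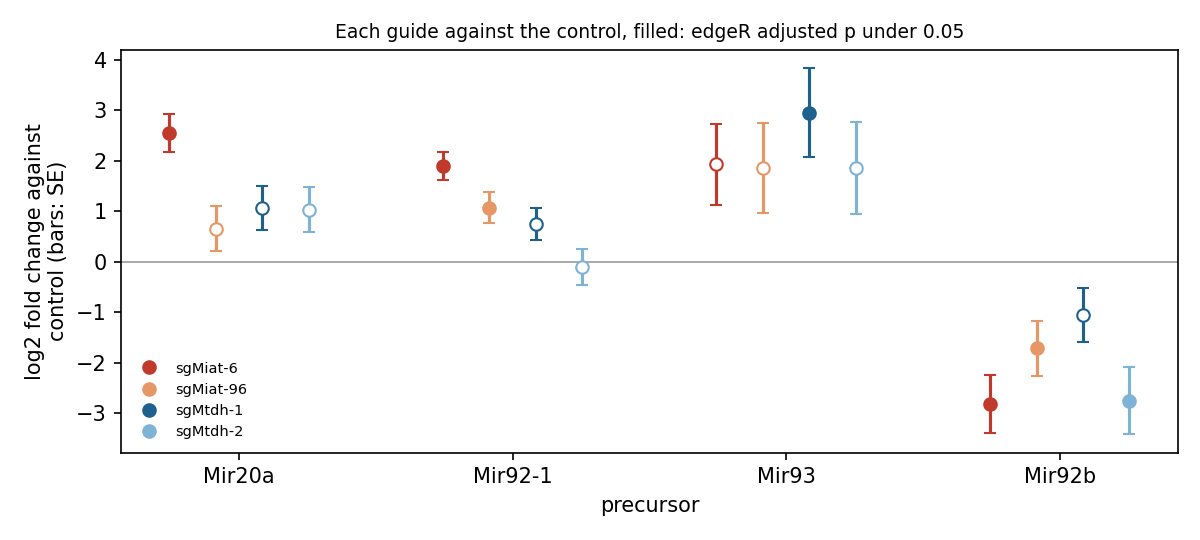
Log2 fold change of each tested precursor with each guide against the 4 control libraries, with SE as bars and filled points where the edgeR adjusted p is under 0.05. Mir20a is filled for sgMiat-6 only, at 2.54, and Mir92b lies below 0 with every guide, from -1.06 to -2.83.

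Set directly against each other, the knockdown groups differed in 1 member, beside 6.90% of the 29 miRNAs. With Mtdh guides Mir92-1 stood 2.28-fold below its level with Miat guides, at -1.19 on the log2 scale (SE 0.33, edgeR adjusted p = 0.0396). This call passed without control 3, Miat 96-1 or Mtdh 1-2 and was lost without any other library (edgeR adjusted p from 0.0636 to 0.338). Mir20a was at -0.90 (edgeR adjusted p = 0.344), Mir92b at 0.57 and Mir93 at 0.63 (0.467 each). Both knockdown groups were compared with the same control libraries, so their changes against control are not independent of each other.

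Relatives of the family outside it were nearly all at 0. Of the 7 precursors that complete the cluster and its X-linked paralogue, Mir18 and Mir92-2 had counts, and Mir106a, Mir18b, Mir20b, Mir19b-2 and Mir363 had none in any library. The 12 precursors of the embryonic Mir290 and Mir302 clusters, some of which share most of the miR-17 seed and act in pluripotent cells, also had none, where a count of 0 allows up to 3 counts per library.

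Over the 12 libraries the levels of the cluster precursors followed other entries counted as miRNAs more closely than each other. By Spearman correlation of log2 CPM, Mir92-1 was most like Mir6236 (0.80) and Mir677 (0.62), and Mir93 was most like the same pair (0.79 and 0.70). Mir20a was most like Mir6236 (0.63) and Mir6538 (0.51). Mir20a and Mir92-1 correlated at 0.43, below both of those. Mir92b was most like Mir181a-1 and Mir181b-2 (0.65 each), and its correlations with the other tested members were negative, from -0.73 with Mir93 to -0.41 with Mir92-1. Mir6236 itself was higher than control on the log2 scale, by 1.63 with Miat and 1.09 with Mtdh guides. The Rn45s share was also higher in both knockdown groups. Whether these correlations, or the counts on Mir6236 and Mir6538, follow it was not tested. All of these correlations are descriptions over libraries that share groups, scaling factors and low depth.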

How the data were processed

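The authors' deposited counts per RefSeq non-coding transcript were used, per the file headers. Deposited FPKM and TPM values, also per the file headers, served only to check transcript lengths. STAR, GRCm38 and mm10 are named in the submitters' processing notes. Trimming, the counter and its rule for reads that map to more than 1 place: not given in the sources used here. Members and lists were chosen with earlier results of these data known. Every member was named, and for each tested member the 2 most alike miRNAs.

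miRNA counts (29 after filterByExpr, minimum count 10, minimum total 15) were fitted with edgeR 4.0.16 in R 4.3.3, using TMM factors and the quasi-likelihood test, with 1 term per group or per guide over 12 libraries. Benjamini-Hochberg adjustment was applied per contrast at 0.05, two-sided. A fit of 143 transcripts of all RNA classes included Mir17hg, with 172 entries that repeat another of their symbol left out beforehand. Precursors under the filter were given as counts with exact Poisson intervals. A count of 1 miRNA read stood for 137 to 985 per 1000000 miRNA counts. Same-guide libraries were not identical and differed beyond sampling noise (chi-square p from 1.19e-68 to 0.00704). Alternatives used DESeq2 1.42.0 and limma 3.58.1. The fits were tested on simulated data. Python 3.11.15, pandas 2.3.3, scipy 1.17.1 and matplotlib 3.10.9 were used for sums and plots.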

Additional observations from a re-analysis of the deposited data

Results flagged for a closer look

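In groups of 4 libraries, a library was picked out when its gap to the nearest of the others exceeded Dixon's critical share of the group's range. For normally distributed values, chance alone gives this in about 1 in 20 groups. That rate does not hold for sparse counts. A group with counts in 1 library alone always exceeds the share, as for Mir17 and Mir19b-1 below. Of 33 groups examined, 4 held a library that was picked out. Mtdh 1-1 stood at 19353 CPM for Mir93, where the other Mtdh libraries ran from 2047 to 3307. Mtdh 1-2 stood at 186 per 1000000 for Mir17, from 1 count, where the others were at 0, and control 2 stood at 563 per 1000000 for Mir19b-1, from 2 counts, where the other controls were at 0. Miat 96-1 had a Mir92-1 share of 69.4% of the counts of Mir92-1 and Mir92b, where the other Miat libraries ran from 92.6% to 97.1%. Differences between guides or targets also stood out in direct tests. Mir20a was lower with sgMiat-96 than with sgMiat-6 by -1.89 on the log2 scale (edgeR adjusted p = 0.0129), and Mir92-1 was lower with Mtdh than with Miat guides by -1.19 (edgeR adjusted p = 0.0396).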

How the results depend on the processing

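Of 948 member values recomputed under alternatives, 793 kept their direction and side of the threshold, 104 lost their call, 18 gained one and 33 changed sign, 0 of which passed before or after. The 948 include values that were not called in the main fits and could not lose a call. The 104 are therefore a larger share of the called values than of the 948. The count of members called in Miat against control libraries, 3, was 0 with the Rn45s share as a covariate or without the sgMiat-6 libraries, 1 with all RNA classes, 2 with no filter and 5 without the sgMtdh-1 libraries, and 2 to 5 without each library in turn. For Mtdh against control, 2 became 1 with library totals, a minimum count of 20, all RNA classes, or without the sgMtdh-1 or sgMtdh-2 libraries. It became 0 with no filter, the covariate, without the sgMiat-6 libraries or without the 3 libraries under 2000 miRNA counts, and was 0 to 2 without each library. For Mtdh against Miat, 1 became 2 with library totals. It became 0 with DESeq2 size factors, totals without Mir30d, DESeq2, limma-voom, no filter, only the 2 groups, the covariate, the 3 low libraries left out, all RNA classes, without the guides sgMiat-6, sgMiat-96 or sgMtdh-2, and, added after seeing the data, with copies of a mature miRNA summed. Without each library it was 0 to 1. The cause was not tested, except that fits without libraries hold fewer samples.

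With the covariate Mir92-1 was at 1.40 (edgeR adjusted p = 0.296), Mir20a at 2.71 (0.183) and Mir92b at -1.29 (0.688) in Miat against control, and Mir93 at 3.54 (0.0968) and Mir92b at -0.67 (0.852) in Mtdh against control. Among all RNA classes, 1 call for Miat became 3 with DESeq2 and 2 with no filter, and was 1 to 1 without each library. The 1 call for Mtdh became 0 with DESeq2 size factors or no filter, and was 0 to 1 without each library, and the 0 calls of Mtdh against Miat were 0 to 2. By guide without each library, calls were 3 to 5 with sgMiat-6, 0 to 3 with sgMiat-96, 0 to 2 with sgMtdh-1 and sgMtdh-2, 0 to 1 between the Miat guides and 0 to 0 between the Mtdh guides. With no filter they were 0 with sgMiat-96, with sgMtdh-1 and between the Miat guides, and library totals gave 2 between the Mtdh guides.

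Of the values that changed sign, 24 were without 1 library. For Mtdh against control, Mir92-1 was at -0.0916 with library totals, -0.0643 with all RNA classes and -0.14 without the sgMtdh-1 libraries, and -0.00668 to 0.448 without each library. In Mtdh against Miat, Mir93 was at -0.29 with library totals (-0.0561 to 1.18 without each library), Mir92b at -0.0410 with library totals and -0.32 without the sgMtdh-1 libraries (-0.0811 to 1.45), and Mir20a at 0.39 without the sgMiat-6 libraries. Among all RNA classes Mir20a was at -0.32 with library totals for Mtdh against control. There, without each library, Mir17hg ran from -0.886 to 0.0269, Mir20a from -0.0599 to 0.737 and Mir92-1 from -0.884 to 0.0556, and Mir92b in Mtdh against Miat from -0.56 to 1.46. By guide without each library, Mir20a ran from -0.38 to 1.198 with sgMtdh-1 and from -0.25 to 1.49 between the Mtdh guides (0.0723 with DESeq2 size factors), Mir93 from -2.36 to 0.75 between the Mtdh and -0.35 to 0.32 between the Miat guides, and Mir92b from -1.30 to 1.79 between the Miat guides.

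With the library number as a replicate block 0 members passed in any of the 3 comparisons (Mir92-1 1.51, edgeR adjusted p = 0.0592, for Miat against control). The deviations of same-numbered libraries correlated between -0.32 and 0.41 over 6 pairs of knockdown guides. Control libraries were not part of that check, and whether a library number marks a shared batch was not tested. Sparse counts limit the rest: a count of 0 allows 3 counts in a library.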
